A study of Mus musculus with 2 samples.

Results

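Vomeronasal receptor genes are described here by every non-control spot of the promoter arrays whose gene annotation began with V1r, V2r or Vmn, alone or in a hyphen-joined pair of names. The rule found 119 gene names of 26433 distinct gene annotations, and 2078 spots of 474380. Array 1 held 1206 of these spots and array 2 held 872, and 3 spots carried a pair of names. All names were of the older V1r and V2r form. In a RefSeq gene table (GRCm38.p6), 111 of them were the older symbol of a single current gene, 2 were current symbols, 5 fitted several genes and 1 fitted none. Each name is counted as a gene below, although V2r10 and V2r11 had the same current symbol, Vmn2r89.

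The study asked which promoters the factor Tcf3 occupies in mouse embryonic stem cells of the line E14, grown without feeder cells, by cross-linking, immunoprecipitation and hybridisation to 2 Agilent arrays of different probes. On each array the Cy5 channel held amplified immunoprecipitate and the Cy3 channel amplified input. The protocol lists antibodies against several proteins, and that the arrays hold Tcf3 is taken from their titles. Each spot is therefore 1 oligo on 1 array from 1 immunoprecipitation, with no replicate, no control immunoprecipitation and no untreated group, so that the number of arrays limits the precision and no difference below has a test against replicate error. The sources used here do not give the genome build of the array coordinates.

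Vomeronasal receptors are the pheromone receptors of sensory neurons in the vomeronasal organ. V1r proteins couple to the G protein subunit Gnai2 and V2r proteins, which have a large extracellular domain, to Gnao1, and a sensory neuron expresses a V1r gene, or a small number of V2r genes, out of the whole repertoire. Their genes lie in clusters of close relatives in AT-rich DNA and are largely silent outside the olfactory system. Tcf3, now named Tcf7l1, binds DNA through an HMG box and acts on Wnt target genes.

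Every value is the log2 ratio of processed Cy5 over processed Cy3, so that above 0 the ratio of Cy5 to Cy3 is higher than at the median spot of the array. A high ratio can come with a dim Cy5 signal. For a signal at or below background the scanner software wrote a surrogate intensity instead, and a spot is called measured when neither channel was a surrogate. Values of all spots are centred on the median of all spots of the array, and values of measured spots on the median of measured spots, which lay 0.04 below the former on array 1 and 0.18 below it on array 2. A set joins a spot to the closest spot upstream and downstream, if under 1000 bp away. A spot is called when its set mean and its own or its neighbours' values exceed the scatter of the array's lower values, by the probabilities in the neighbourhood rule given with the methods.

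The results turn on what kind of oligo stands behind a high ratio, and the following oligos show it. The first 10 are the spots called when only measured spots were used, with G and C in capitals and array coordinates.
V1rc4, chr6:57150114-57150173: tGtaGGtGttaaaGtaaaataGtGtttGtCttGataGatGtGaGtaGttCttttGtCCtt
V1rc6, chr6:57221071-57221128: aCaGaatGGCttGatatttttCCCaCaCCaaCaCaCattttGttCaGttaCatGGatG
V1rc6, chr6:57221415-57221474: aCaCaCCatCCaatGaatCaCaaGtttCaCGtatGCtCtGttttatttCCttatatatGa
V1rb8, chr6:90046682-90046731: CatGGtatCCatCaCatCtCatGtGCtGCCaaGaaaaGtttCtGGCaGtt
V1rb8, chr6:90047600-90047654: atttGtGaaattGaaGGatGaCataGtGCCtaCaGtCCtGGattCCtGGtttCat
V1rb2, chr6:90150958-90151010: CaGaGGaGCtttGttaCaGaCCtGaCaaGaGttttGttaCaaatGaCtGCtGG
V1re10, chr7:9097304-9097363: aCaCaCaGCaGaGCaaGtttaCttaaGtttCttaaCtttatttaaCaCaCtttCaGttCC
V1rg4, chr7:10561219-10561278: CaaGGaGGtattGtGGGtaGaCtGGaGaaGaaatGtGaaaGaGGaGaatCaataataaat
V1rg3, chr7:10819176-10819235: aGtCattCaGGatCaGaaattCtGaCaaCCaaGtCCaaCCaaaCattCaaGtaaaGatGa
V1rd7, chr7:20419662-20419721: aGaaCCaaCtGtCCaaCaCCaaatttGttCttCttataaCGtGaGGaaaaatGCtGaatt
These oligos held G or C at a median of 36.7% of their bases, against 40.4% over the other spots of the array. The next 3 were called with all spots although neither channel was above background, and held 36.7%, 28.3% and 23.3% G and C.
V1rc19, chr6:56949885-56949944: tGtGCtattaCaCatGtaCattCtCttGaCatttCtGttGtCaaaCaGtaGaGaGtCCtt
V1rc5, chr6:57167734-57167793: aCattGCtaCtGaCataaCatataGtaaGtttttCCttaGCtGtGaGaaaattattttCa
V1rc12, chr6:66666682-66666741: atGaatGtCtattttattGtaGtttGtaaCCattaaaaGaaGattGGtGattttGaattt
Of the 2078 oligos, 2, for 2 genes, shared a run of 30 bases with an oligo of another member name.

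With all spots, the receptor genes lay above the rest of both arrays. Their median log2 ratio was 0.85 on array 1 (middle 50% of spots 0.12 to 1.79), 1.80-fold above the array's median spot. On array 2 it was 0.91 (0.20 to 1.45), 1.88-fold, against medians of 0.00 over the other spots of each array. Gene by gene, 114 of the 119 genes had a median above 0, a count that was not made for other gene annotations. Input was dim at these spots. Median Cy3 intensity was 138 at member spots of array 1 and 113 on array 2, against 468 and 315 at the other spots. Median Cy5 intensity was 174 and 198, against 324 and 212.

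Most of these ratios held no measured immunoprecipitate. The Cy5 signal was a surrogate in 862 spots of array 1 (71.5%) and 735 of array 2 (84.3%), against 30.5% and 51.6% of the other spots. The input itself was a surrogate in 16.7% and 31.8% of member spots, against 2.15% and 7.80%. Surrogate Cy5 intensities were nearly constant, with a median of 173 on array 1 (167 to 196) and 197 on array 2 (190.0 to 219). A surrogate over a dim input therefore gives a ratio that rises as the input falls, from -1.28 to 2.23 over the 662 spots of array 1 with a surrogate in Cy5 alone. In the deposited log ratio, which the authors' software wrote, 671 member spots of array 1 (55.6%) and 625 of array 2 (71.7%) were exactly 0, against 13.2% and 29.4% of the other spots. Among measured spots of the family 0 had this value.

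**Figure D1:**
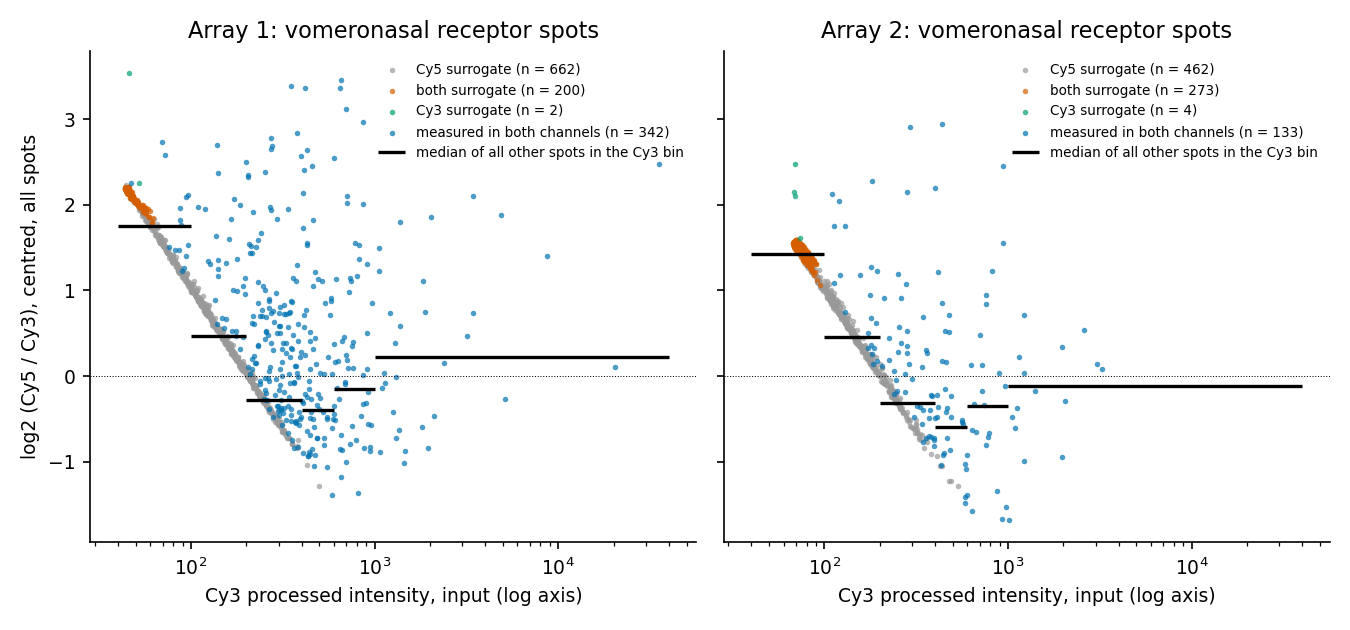
Centred log2 ratio of Cy5 over Cy3 (y axis) against Cy3 input intensity (x axis, log scale) for each vomeronasal receptor spot of array 1 (left) and array 2 (right), coloured by which channels held a surrogate, with black bars at the median of all other spots in the same range of Cy3. Spots with a surrogate in Cy5 alone form a descending line that starts at 2.23 on array 1, and measured spots scatter on both sides of 0, from -1.40 to 3.46 on array 1 and -1.68 to 2.94 on array 2.

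The plot of the log ratio against input shows both kinds of spot together. Measured spots numbered 342 on array 1 (28.4%) and 133 on array 2 (15.3%), against 69.5% and 48.4% of the other spots. Their medians were 0.43 ± 1.02 (SD over spots, n = 342) on array 1 and 0.22 ± 0.94 (n = 133) on array 2. They ran from -1.36 to 3.50 and from -1.5 to 3.12. Below 0 lay 117 of them on array 1 (34.2%) and 58 on array 2 (43.6%), against 50% of the other measured spots of both arrays. The medians of measured spots were thus lower than those of all spots on both arrays.

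The highest and the lowest measured oligo of the family are printed here, again with G and C in capitals, because they bound that range.
V1rc14, chr6:66598192-66598251: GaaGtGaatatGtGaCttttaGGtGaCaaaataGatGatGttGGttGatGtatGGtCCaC
V1rf5, chr17:19169901-19169960: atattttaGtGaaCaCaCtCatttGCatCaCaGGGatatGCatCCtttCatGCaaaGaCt
The V1rc14 oligo read 6129 in Cy5 over 658 in Cy3, a value of 3.50, and the V1rf5 oligo read 308 over 1011, a value of -1.5. Both inputs were well over the median input of the family. The only neighbour in the set of the V1rc14 oligo stood at -0.02 (set mean 1.74 ± 2.49, SD over 2 measured spots). The V1rf5 oligo holds the octamer ATGCAAAT on the reverse strand.

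Whether a dim spot can be measured depends on its Cy5 value, which bounds the measured values from below. Among member spots of array 1 with an input under 200, 47 of 766 were measured (6.14%), and their median was 1.41 with 0 of them below 0. Other spots of the same input were measured in 8.16% of cases, at a median of 1.12, and also 0 lay below 0. Between 200 and 400 the member median was 0.35 (140 spots) against 0.01, and between 400 and 1000 it was 0.06 (124 spots) against -0.20. Above 1000 the order turned, at 0.20 (31 spots) against 0.27. On array 2 the medians of members and others from the dimmest to the brightest range were 1.13 and 1.12, then 0.22 and 0.19, then -0.24 and -0.20, and last 0.01 and 0.07. At equal input the receptor spots of array 2 thus stood within 0.06 of the other spots in each range, and those of array 1 up to 0.34 above them below an input of 1000.

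Bright input was rare in the family. An input of at least 400 was read at 157 member spots of array 1 (13.0%) and 74 of array 2 (8.49%), against 57.3% and 39.7% of the others. On the scale of all spots these bright receptor spots had medians of 0.03 and -0.45, against -0.09 and -0.36. Limited to oligos of 35 to 45% G and C, the members had 0.01 (125 spots) against -0.42 on array 1, and -0.56 (47 spots) against -0.72 on array 2. Olfactory receptor spots of the same input and GC content had -0.19 on array 1, between both, and -0.54 on array 2, above both. The 8 brightest oligos of the family had ratios from -0.23 to 2.52, and those with the highest and the lowest are shown, again with G and C in capitals.
V1rc6, chr6:57222838-57222897: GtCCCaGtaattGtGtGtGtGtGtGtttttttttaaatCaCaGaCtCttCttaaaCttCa
V1rg9, chr7:10888439-10888497: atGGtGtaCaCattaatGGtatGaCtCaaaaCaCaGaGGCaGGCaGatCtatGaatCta
The V1rc6 oligo read 35391 in Cy3 and 166574 in Cy5, a ratio of 2.52. The V1rg9 oligo read 5140 and 3603, a ratio of -0.23.

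Base composition moved with the ratio in the family as in the rest of the arrays. Member oligos had a median GC content of 35% on array 1 and 36.7% on array 2, against 40.4%, and 0.373 and 0.337 CpG per 100 bases against 1.29 and 1.32. From 20 to 25% GC the member median was 2.10 on array 1 with 100% of Cy5 values surrogate, near the 2.08 of all other spots. It fell through 2.00 and 1.25 to 0.46 at 35 to 40% and 0.11 at 40 to 45%. Other spots fell through 1.44 and 0.50 to -0.19 and -0.28. At equal GC content above 25% the members of array 1 therefore stood above the others, while their input stayed dimmer, at a median of 94.2 against 164 from 30 to 35%. With the median of each 2% GC bin subtracted, the medians of all member spots were 0.54 and 0.30. Measured spots with the trend subtracted gave 0.57 and 0.24.

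**Figure D2:**
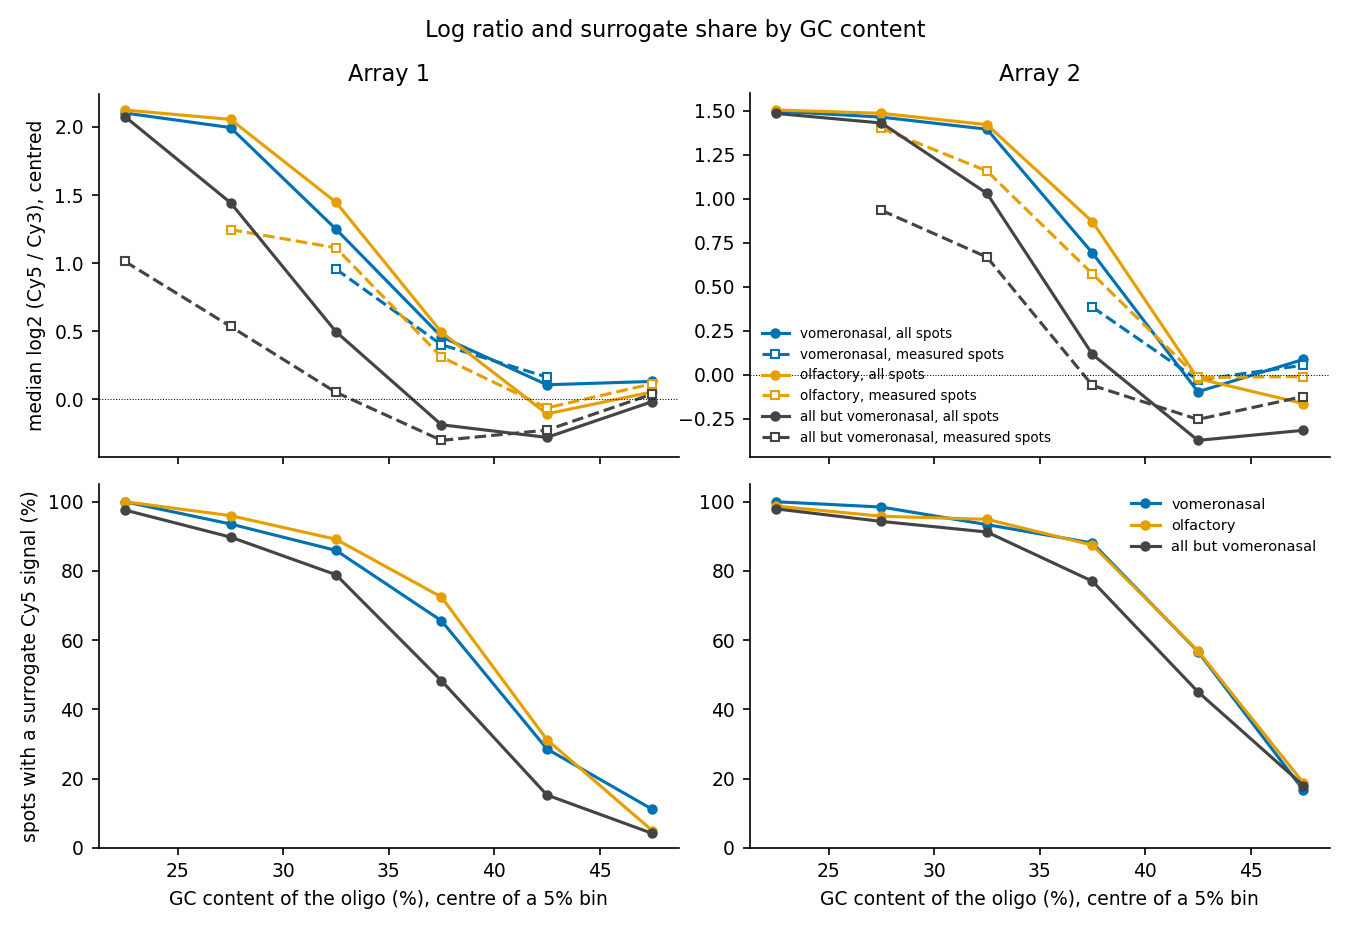
Median centred log2 ratio (top) and percent of spots with a surrogate Cy5 signal (bottom) in bins of 5% GC content of the oligo, for vomeronasal receptor, olfactory receptor and all non-vomeronasal spots of array 1 (left) and array 2 (right). Solid lines are all spots, and dashed lines are measured spots in bins with at least 20 of them. From 25 to 45% GC both receptor families lie above the rest of array 1, with a higher share of surrogates.

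The curves by GC content show the olfactory receptors alongside. Spots of this other large family of chemosensory receptors, 10116 on array 1 and 9809 on array 2, had medians of 0.75 and 1.06 over all spots, falling to 0.21 and 0.27 over the measured ones. Their Cy5 surrogates amounted to 70.1% and 83.5%. Bitter taste receptors (Tas2r) had 0.75 with all 798 spots of array 1 and 0.35 with measured spots, and 0.64 with all 30 spots of array 2 and also 0.64 with 7 measured spots. Trace amine-associated receptors (Taar), which array 2 alone held, had 0.55 and 0.30. The vomeronasal measured median was the highest of these families on array 1 and the lowest of them on array 2, differences that have no test here.

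Most called spots of the family held surrogates. With all spots, 174 of the 1163 member spots of array 1 that had a set were called (15.0%), against 2.46% of all spots in a set on that array. On array 2, 3 of 865 were called (0.347%), against 0.272%. In all 44 of the 119 receptor genes held a called spot. Of receptor genes with a set, these were 41 of 71 on array 1 (57.7%), against 16.8% of gene annotations there, and 3 of 41 on array 2 (7.32%), against 3.59%. Of the 177 called spots, 149 (84.2%), all on array 1, had a surrogate in Cy5, and 121 lay in sets made of surrogate spots alone. Among the called spots outside the family, 54.5% on array 1 and 0.313% on array 2 had a surrogate in Cy5. No called spot of the family lay in a set free of surrogates. The called spots of the family had a median GC content of 30% and a median input of 48.1.

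Where both channels were surrogates, the ratio was that of 2 nearly constant values. Such spots numbered 200 among the members of array 1, with a median of 2.14 (1.79 to 2.21), and 273 on array 2, with a median of 1.5 (1.07 to 1.59). The rule calls a spot of a high set when 2 spots reach 1.85 on array 1, or 2.00 on array 2. The median surrogate ratio lay above that level on array 1, and each such member spot of array 2 lay below it. Of this kind, 111 of the 189 member spots with a set were called on array 1 (58.7%) and 0 of 269 on array 2. Among other spots of this kind 45.1% were called on array 1, and 1 of 18081 on array 2. The difference in called share between V1r clusters on different arrays thus cannot be told apart from the difference between the arrays' surrogate levels.

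With measured spots, 10 of 253 member spots in a set were called on array 1 (3.95%), against 1.63% of all measured spots in a set, and 0 of 84 on array 2, against 1.46%. These 10 spots, the oligos printed first, named 8 of the 47 genes with a measured set on array 1 (17.0%), against 13.4% of gene annotations, a share near the background. On array 2 they named 0 of 18, against 9.9%. Of the 8, 7 were among the 44 genes called with all spots, which is 15.9% of the longer list and 87.5% of the shorter. V1rb8 was the exception. With the GC trend subtracted as well, 25 spots of array 1 were called (9.88%), against 1.87%, and 0 of array 2, against 0.888%. Those 25 named 15 of the 47 genes on array 1 (31.9%), against 15.4% of gene annotations, and included the 8. On array 2 they named 0 of 18, against 6.32%. Olfactory receptors gave 16% with all and 2.92% with measured spots of array 1, and 1.95% with measured spots of array 2. The member share of array 1 was above its background under each of these settings, with dimmer input and lower GC content than the background, whose part in the result was not tested.

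**Figure D3:**
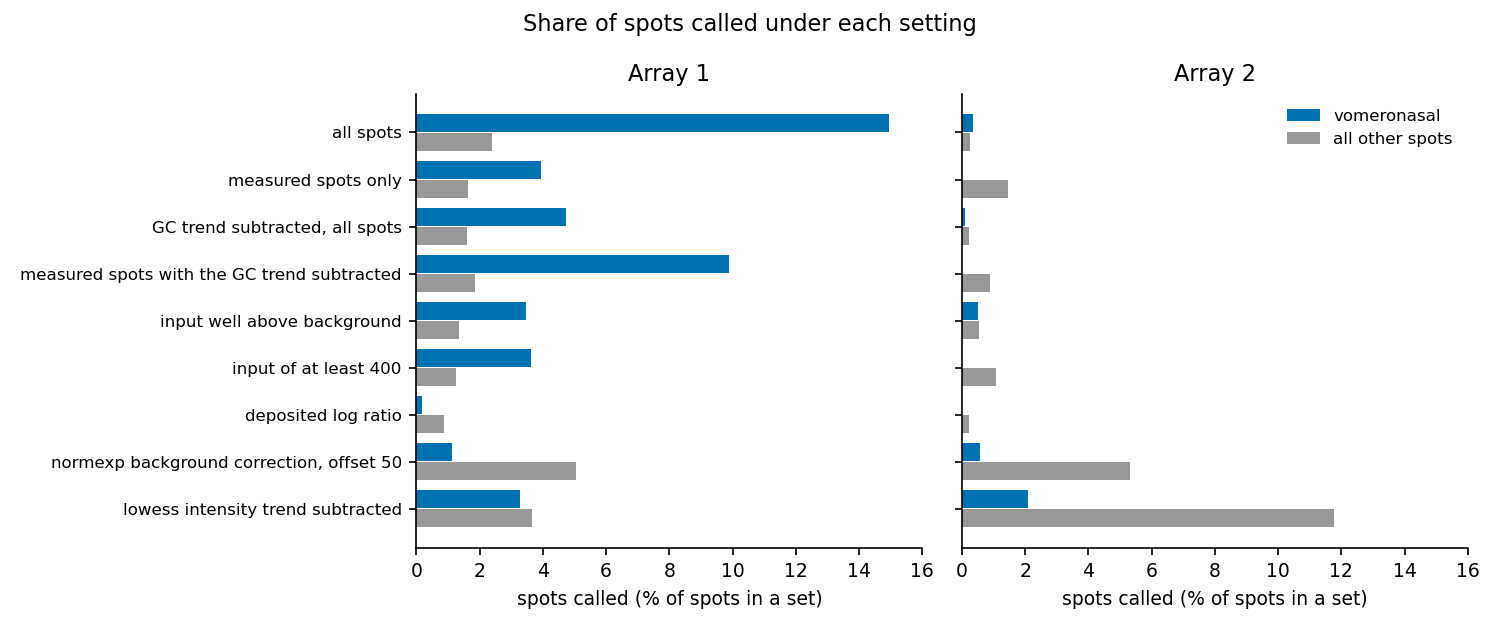
Percent of spots in a set that were called (x axis) among vomeronasal receptor spots (blue) and all other spots (grey) of array 1 (left) and array 2 (right), for all spots and 8 other ways of choosing or computing the log ratio (y axis). The receptor bar exceeds the grey one on array 1 in the first 6 settings, by 15.0% against 2.40% with all spots, and is the shorter one with the deposited log ratio, normexp correction and the intensity trend subtracted.

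The bars of called shares show that the order of receptor and other spots on array 1 turned with the signal used. With the deposited log ratio 0.172% of member spots were called, against 0.858% of the others. Background correction by normexp gave 1.12% against 5.05%, and subtraction of the trend with intensity gave 3.27% against 3.65%. The latter 2 settings gave member medians of 0.05 and 0.01 on array 1 and of -0.03 and 0.00 on array 2. With the deposited log ratio the member median, 0.24 and 0.03, is that of the exact zeros after centring, since these make up most member spots.

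Spots around the 8 genes called with measured spots differed in how far neighbours shared the height. V1rc6 (Vmn1r15), a receptor gene of chromosome 6, had 2 called spots 345 bp apart, at 3.01 and 2.45, with Cy5 at 5732 and 1851 over Cy3 at 867 and 412. Between them lay a surrogate spot with a ratio of 1.07 on the all-spot scale, and the set of the second had a mean of 2.73 ± 0.39 (SD, 2 spots). This was the highest measured set of the family. Over all 9 measured spots of V1rc6 the values ran from -0.35 to 3.01 with a median of 1.05.

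V1rc4 reached 2.68 at its called spot, and the measured neighbour 321 bp away stood at 1.57. V1re10 (Vmn1r67), on chromosome 7, reached 3.43 with a neighbour at 1.48, 235 bp away. V1rd7 (Vmn1r171) had only 2 measured spots, at 2.55 and 1.01, 150 bp apart. In these 3 genes the measured neighbour stood lower than the called spot. Distances are between the centres of oligos. V1rg4 (Vmn1r76) reached 2.74 with its nearest measured neighbour, at 0.92, 879 bp away, and 3 surrogate spots between them. For V1rg3 (Vmn1r80) the called spot at 2.42 was paired with a spot at 1.51, 682 bp away, across 4 surrogate spots.

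V1rb8 and V1rb2 each had a called spot below 0. V1rb8 (Vmn1r46) had called spots at 1.86 and -0.53. The partner of the first, at 2.15, lay 695 bp away across 2 surrogate spots at -0.82 and -0.72. The second was called through neighbours at 2.15 and 2.50. V1rb2 (Vmn1r49) had a called spot at -0.12 between spots at 1.93 and 2.04, the former with an input of 4885. In both genes high and low spots alternated.

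**Figure D4:**
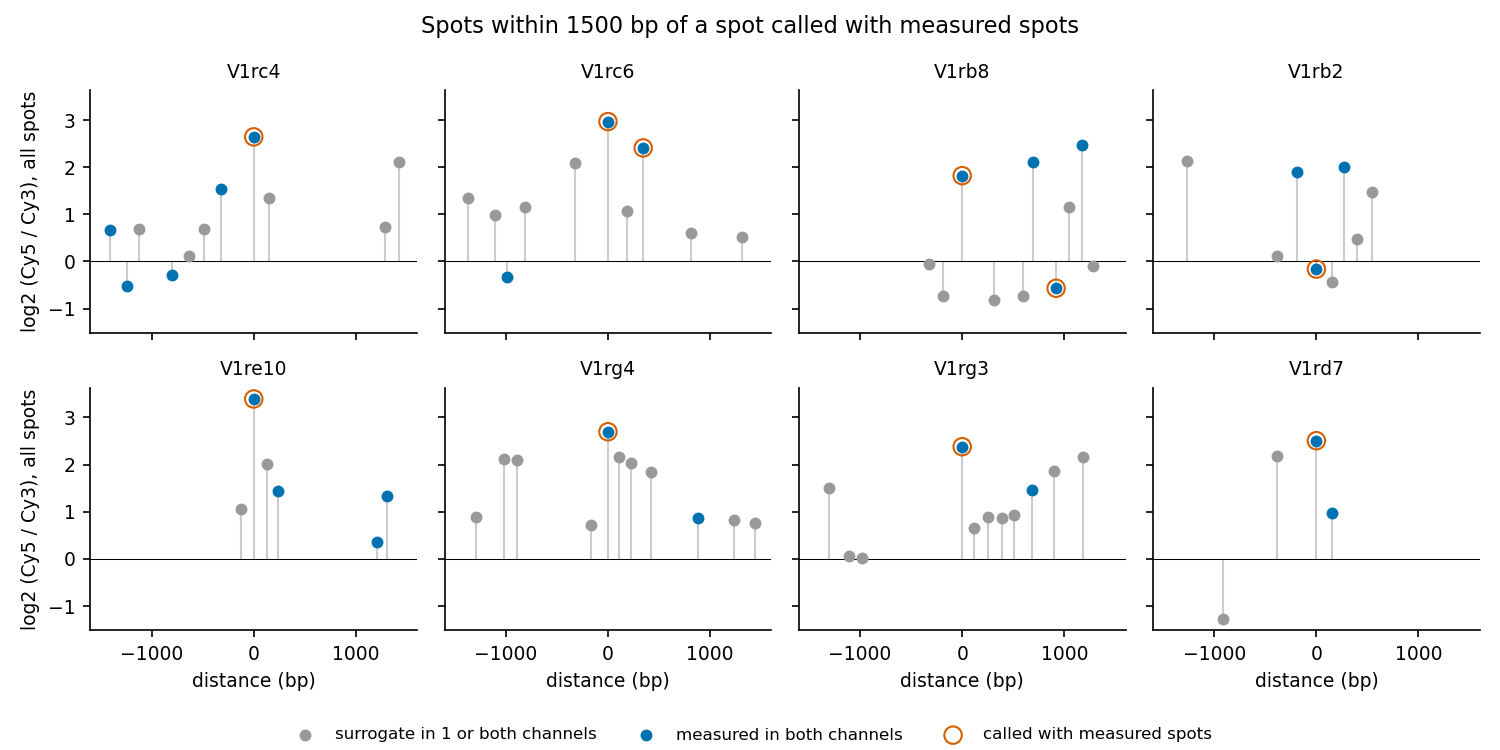
Centred log2 ratio of every spot (y axis, all-spot scale) by distance in bp from a spot called with measured spots (x axis), for the 8 genes with such a spot; for V1rc6 and V1rb8, the first of 2 called spots is at 0. Blue points were measured in both channels, grey points hold a surrogate and orange rings mark called spots, which stand at 2.97 and 2.41 in V1rc6 and at -0.16 in V1rb2.

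The runs by distance also show how sparse measured spots were: of the 19 clusters formed by joining member spots less than 200000 bp apart, 3 had 1 measured spot. The family lay on chromosomes 6 (45 genes) and 7 (32), with 1 gene on chromosome 5, all on array 1, and on chromosomes 13 (26), 17 (13) and 14 (2), all on array 2. Genes had 1 to 39 spots, with a median of 17.

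Among subfamilies, V1rc had the highest ratios of array 1. Its 28 genes lie on chromosome 6, in 3 clusters whose largest spans 56945819 to 57368745. Its 376 spots, with 3 counted under both V1rc26 and V1rc27, had a median GC content of 33.3% and a median of 1.32 with all spots. Of them, 79.3% had a surrogate in Cy5. With its 77 measured spots the median was 0.63 ± 1.11 (SD over spots). It held 96 of the 174 spots called on array 1 with all spots, in 19 genes, and 3 of the 10 called with measured spots, in 2 genes. Over all of array 1, 2.46% of spots in a set and 16.8% of gene annotations were called with all spots, and 1.63% and 13.4% with measured spots. The cluster from 56945819 had 29.6% of its 199 spots called with all spots.

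V1ra and V1rb, which share a cluster of 16 genes further along chromosome 6 (89785073 to 90346405), were the opposite case. Both had a median of 0.25 with all spots, and 0.13 ± 0.86 and 0.16 ± 0.96 with 32 and 60 measured spots. Their GC content was 36.7% and their inputs 193 and 252, brighter than the 93.0 of V1rc. With all spots 5 of their 231 spots were called, and 3 of 92 with measured spots, against 2.46% and 1.63% of spots in a set over array 1. These V1r clusters of one chromosome thus differed more with all spots than, at 0.63 against 0.13 and 0.16, with measured spots.

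On chromosome 7, V1rg (10 genes) had 0.89 with all spots and 0.47 ± 1.16 with 60 measured spots. Of its 221 spots, 72.9% had a surrogate in Cy5. With all spots 43 of the 221 were called, and 2 of the 60 with measured spots. Over all spots in a set of array 1 the shares were 2.46% and 1.63%. V1rd (13 genes) had 0.69 and 0.35 ± 0.86, and V1re (5 genes there) 0.76 and 0.39 ± 0.96. V1rj, V1rk and V1rl, with 4 genes in all, had 0.81, 0.17 and 0.73 with all spots, and 0.37, 0.03 and 0.34 with 12, 8 and 8 measured spots. On chromosome 13 V1rh (17 genes) had 0.93 and 0.29 ± 0.93, and V1ri (9 genes) 0.51 and 0.06 ± 0.86. V1re of chromosome 17 (8 genes) had 1.32 with all spots, 91.5% of them with a surrogate in Cy5, and 0.52 ± 1.05 with 17 measured spots. V1rf (5 genes) on the same chromosome had 0.62 with all spots and -0.22 ± 0.71 over 19 measured spots, and was the only subfamily with a measured median below 0. The 4 V2r names, of which V2r10 and V2r11 are both older names of Vmn2r89, had 18 spots, of which 5 were measured. V2r11 had 3 of these, at -0.19, 0.87 and 3.10.

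**Figure D5:**
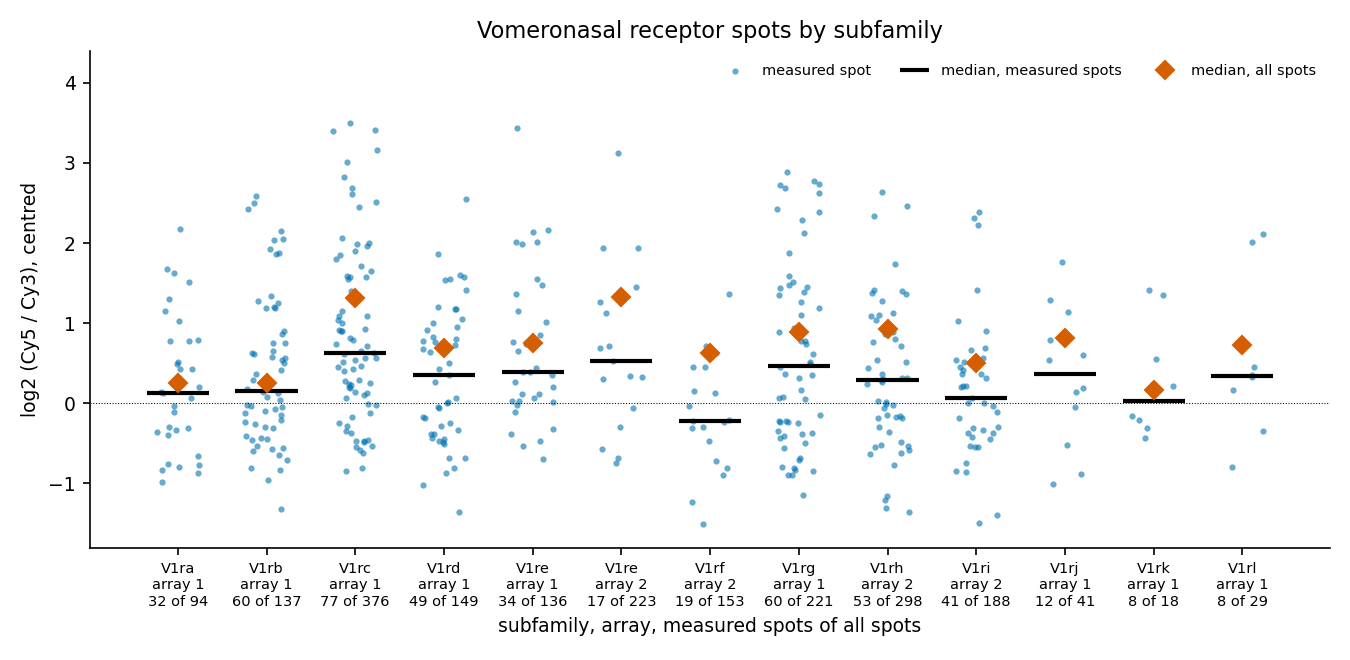
Centred log2 ratio (y axis) of each measured spot (blue) by V1r subfamily and array (x axis, with the number of measured spots of all spots), with the median of measured spots (black bar) and of all spots (orange diamond). The diamonds lie above the bars in each subfamily shown, by 1.32 against 0.63 in V1rc and 0.62 against -0.22 in V1rf, and each cloud of spots spans 0.

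The subfamily plot shows measured spots on both sides of 0 in each V1r subfamily. Among the 73 genes with at least 3 measured spots, 58 had a median above 0 and 15 below, from -0.46 to 2.01. Dim spots entered these medians only with a high Cy5 value, as described above, and other genes were not counted the same way. In 62 of the 73 genes measured spots lay on both sides of 0, in 10 all were above and in 1 all were below. V1rc19 (Vmn1r5) led with 4 measured spots, at 0.28, 1.40, 2.62 and 3.40. V1rc3 (Vmn1r11) followed with a median of 1.99 over 7 spots (0.40 to 3.16). V1rg4 had 1.6 over 6 (-0.84 to 2.77). The first and second of these, both V1rc genes of the same cluster on chromosome 6, had no measured spot below 0.

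V1re8 (Vmn1r230) on chromosome 17 had 4 measured spots at 0.52, 1.26, 1.45 and 1.94, yet its highest set mean of 1.36 ± 0.14 was not called. V1rc13 (Vmn1r38) had values of 0.23, 0.90, 1.59 and 3.41, and V1rc1 (Vmn1r10) of -0.54, 0.65, 1.55 and 2.00. V1ra7 (Vmn1r52) had a median of 1.15 over 7 spots (-0.83 to 1.67), and V1rg7 (Vmn1r78) of 1.11 over 6 (-0.90 to 2.39). With the GC trend subtracted V1rc13, V1ra7 and V1rg7 gained called spots, as did V1rc3, V1rc20, V1rd13 and V1rg11. All of these are receptor genes of the V1r class, and none but V1rc19 and V1rc3 of those named had a median near 2.

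At the other end V1rc8 (Vmn1r25) had measured values of -0.85, -0.46 and 0.12, and 2 of its spots were called with all spots. V1ra9 (Vmn1r54) had -0.80, -0.77, -0.40, 0.13 and 0.14. V1rd11 (Vmn1r64) was the only gene of at least 3 measured spots with all of them below 0, at -0.51, -0.47, -0.24 and -0.05. V1rd13 (Vmn1r178) joined extremes, at -1.36, -0.68, -0.33, 1.55 and 1.86, and the spots at 1.55 and 1.86 were called with the GC trend subtracted. V1ri10 (Vmn1r216) of chromosome 13 had a median of -0.39 over 6 spots (-0.86 to 0.48). The V1rc8 values show that a gene can be called with all spots while its measured spots lie mostly below 0.

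The gene with the most measured spots of each V1r subfamily had a median between -0.33 and 1.15. The highest were V1ra7 and V1rc6, given above. V1rg11 (Vmn1r84), with the most measured spots of the family, had a median of 0.35 over 17 spots (-0.85 to 2.88). V1rb7 (Vmn1r40) had 0.22 over 14 (-0.96 to 1.88) and V1re13 (Vmn1r71) 0.19 over 12 (-0.69 to 2.01). V1rd6 (Vmn1r65) had -0.33 over 10 (-1.02 to 1.05), and V1rh20 (Vmn1r211) 0.28 over 10 (-0.53 to 2.34). V1ri4 (Vmn1r201) and V1rj3 (Vmn1r85) had 0.16 and 0.07 over 8 each, V1rk1 (Vmn1r87) and V1rl1 (Vmn1r70) 0.03 and 0.34 over 8 each, and V1rf2 (Vmn1r235) -0.26 over 6. In each of these genes values lay on both sides of 0.

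The genes with the highest sets over all spots were largely unmeasured there. V1rc3 led at 2.47 ± 0.44 (SD, 2 spots, 1 a surrogate), followed by V1rc19 at 2.39 ± 0.27 (2 spots, 1 a surrogate) and V1rg4 at 2.36 ± 0.33 (3 spots, 2 of them surrogates). V1re10 and V1rg5 (Vmn1r74) followed at 2.28 and 2.22. V1rc5 (Vmn1r13) at 2.18, V1rc12 (Vmn1r35) at 2.17, V1rc14 (Vmn1r33) at 2.16, V1rc23 (Vmn1r22) at 2.16 and V1rc8 at 2.16 rested on surrogates alone, and their SDs over the set were 0.00 to 0.05. V1rc23 had 12 spots, 7 of them called, and no measured spot. In all, 11 genes had no measured spot.

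Genes of lower GC content had higher medians of all spots, among genes with at least 3 spots, with Pearson's r of -0.63 over 70 genes of array 1 and -0.57 over 41 of array 2 (Spearman's rho -0.69 and -0.61). For medians of measured spots r was -0.39 over 50 genes and -0.01 over 23 (rho -0.42 and -0.12). These are descriptions across genes of a single array that share a hybridisation, neighbouring DNA and base composition, and genes are not independent replicates.

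The promoter itself was covered by few of these oligos. The RefSeq table of promoter sequences (GRCm38.p6), 250 bases before to 50 after each start, held 326 windows of 325 vomeronasal receptor genes, and 78 member oligos of 62 names lay wholly within them. In 76 cases the array's name was an older name of the promoter's gene. Promoter oligos had a median GC content of 34.2% and a median of 1.12 with all spots, against 0.87 for the other 2000 member spots. The 15 measured ones had a median of 0.67 (-0.86 to 2.69), against 0.33. With all spots 8 of the 78 were called, against 177 of the 2078 spots of the family, and 2.46% and 0.272% of all spots in a set on arrays 1 and 2. With measured spots 1 of 15 was called, against 1.63% and 1.46%. That 1 lay in V1rc6, and its promoter is shown 5′ to 3′ on the + strand with the oligo in capitals, from 104 to 45 bases before the start. The array gives the same oligo another coordinate, so that its build is not that of the table.
Vmn1r15, chr6:57257899-57258198, GRCm38.p6: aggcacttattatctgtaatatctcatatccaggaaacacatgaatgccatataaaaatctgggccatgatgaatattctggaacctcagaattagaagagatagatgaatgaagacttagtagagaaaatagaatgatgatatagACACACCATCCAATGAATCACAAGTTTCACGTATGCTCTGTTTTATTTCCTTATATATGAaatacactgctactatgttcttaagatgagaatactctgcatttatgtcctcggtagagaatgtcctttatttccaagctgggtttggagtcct
This window has 35% G and C and holds neither CTTTGAT nor CTTTGTT. Among other measured promoter oligos, V1rg11 stood at 2.69 with its oligo across the start and V1rg5 at 2.63, with inputs of 274 and 72.3. An oligo that the array names V1rd18, in the promoter of V1rd19, stood at -0.86, and V1rh14 at -0.77, with inputs of 408 and 1958. A dim spot was measured only with a high Cy5 value, as described above, and promoter oligos were not compared at equal input. Promoters of this family hence held both high and low values.

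Letters of the Tcf/Lef core were counted in the oligos and in the RefSeq promoters. CTTTGAT was searched on both strands in the 1736 member oligos of 60 bases and found in 26 (1.5%, 95% Wilson interval 1.02 to 2.19), against 1.45% of 195329 other 60-base oligos and 1.48% of those at the family's GC content. CTTTGTT was found in 40 (2.30%, 1.70 to 3.12), against 2.21% and 2.35%. The octamer ATGCAAAT, the site of Oct factors, was found in 16 (0.922%, 0.568 to 1.49), against 0.560% and 0.602%. In 326 receptor promoters CTTTGAT was found in 6.13% and CTTTGTT in 4.60%, against 3.73% and 5.85% of 32851 promoters, and the octamer in 3.68% against 1.74%. Unlike the oligo shares, the promoter shares were not compared at equal GC content and have no interval. These matches are a description of letters in the windows.

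Over oligos of all lengths, 9 measured member spots held CTTTGAT or CTTTGTT. They are shown from the lowest to the highest ratio with the core in capitals, as read on either strand, because they are the spots where the factor's own motif and a measured ratio meet.
V1rb1, chr6:90179207-90179266: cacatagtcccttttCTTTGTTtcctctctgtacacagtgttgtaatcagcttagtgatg
V1ri4, chr13:21841050-21841101: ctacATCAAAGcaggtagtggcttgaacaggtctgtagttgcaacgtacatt
V1rb2, chr6:90150958-90151010: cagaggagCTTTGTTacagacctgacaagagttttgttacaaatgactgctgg
V1rh1, chr13:21806838-21806892: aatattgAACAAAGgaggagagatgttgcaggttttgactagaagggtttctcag
V1rc15, chr6:66541730-66541789: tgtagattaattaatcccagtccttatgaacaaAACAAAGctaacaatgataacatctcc
V1rh18, chr13:22253600-22253659: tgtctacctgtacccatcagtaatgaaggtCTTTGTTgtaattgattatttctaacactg
V1rc13, chr6:66759678-66759737: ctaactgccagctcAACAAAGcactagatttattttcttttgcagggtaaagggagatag
V1rc3, chr6:57095418-57095477: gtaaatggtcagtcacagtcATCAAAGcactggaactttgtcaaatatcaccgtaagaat
V1rb4, chr6:89967593-89967646: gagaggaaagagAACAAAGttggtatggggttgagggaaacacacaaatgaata
Their values ran from -1.32 in V1rb1 through -0.38 in V1ri4, -0.12 in V1rb2 and 0.24 in V1rh1 to a median of 0.90 in V1rc15. Above it stood V1rh18 at 1.41, V1rc13 at 1.59, V1rc3 at 1.99 and V1rb4 at 2.05. The other 466 measured member spots had a median of 0.34, a difference that has no test here. V1rb2 held the only one that was called with measured spots. The 5 measured spots with ATGCAAAT ran from -1.5 to -0.04, with a median of -0.23.

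Most listed genes of chemosensory signalling and development had medians near that of the array. The list of 44 genes covers vomeronasal signalling and development. It also holds genes of olfactory signalling such as Adcy3, Cnga4 and Gnal, and the ligand genes Mup4 and Mup5. Of the 44, the arrays named 33, whose median of gene medians was -0.02 with all spots and 0.04 with measured spots. With all spots 1 was called, Emx2, with measured spots 2, Bcl11b and Fpr-rs2, and with the GC trend subtracted 1, Gng8. Over all gene annotations of arrays 1 and 2, the same 3 settings called 16.8% and 3.59%, then 13.4% and 9.9%, and last 15.4% and 6.32%. Gnai2 and Gnao1, the G protein subunits of V1r and V2r neurons, had measured medians of -0.22 and -0.33 over 25 and 22 spots. Omp, the marker of mature sensory neurons, had 0.42 over 36 spots.

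Formyl peptide receptors, of which several are expressed in vomeronasal neurons, were named as Fpr-rs2, Fpr-rs3, Fpr-rs4, Fpr-rs6 and Fpr-rs7 and lie on chromosome 17, as do V1rf and some V1re genes. Their medians with all spots were 1.19 to 1.43, their GC content 35 to 36.7% and their surrogate shares in Cy5 71.4 to 96.6%. They had 13 measured spots in all. The 7 H2-M class I genes named, which are expressed with V2r receptors, had medians of -0.27 to 0.66 with all spots, at GC contents of 36.7 to 41.8% and surrogate shares of 40.0 to 68.4%. Fpr1, a further formyl peptide receptor on chromosome 17, had a median of 0.18 over all 7 spots, with 85.7% Cy5 surrogates, and -1.24 at its 1 measured spot.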

How the data were processed

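Per the file headers, the authors used Agilent Feature Extraction 9.1.1.1, which subtracted background, detrended and dye-normalized the deposited intensities linearly and wrote surrogates for signals at or below background. The authors' software also deposited a log10 ratio, which is 0 at many surrogate spots. A neighbourhood model with median normalization is named for the authors' own calls, per the labels' protocols, and those calls are not used here. The rule computed here follows the wording of that model, and its calls may differ from theirs. With all spots it called 5806 spots of array 1 and 642 of array 2.

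Computed here (Python 3.11.15, pandas 2.3.3, scipy 1.17.1): log2 of processed Cy5 over Cy3, centred per array without non-uniform spots; measured spots recentred; a GC trend as the median per 2% bin. Sets held 2 or 3 spots. A call needed a set mean with a normal upper-tail probability below 0.001, and in addition the spot below 0.001 beside a neighbour below 0.1, or 2 spots of the set below 0.005. The scale came from values below the median (0.72 and 0.78 with all spots, 0.71 and 0.68 with measured spots). The caller was tested on simulated independent normal values with planted regions. These held no surrogates and no trend with GC content or input, so that the test does not bear on calls from surrogate spots. Alternatives used limma 3.58.1 for normexp and statsmodels 0.14.6 for lowess. Named genes are the 10 highest and 5 lowest medians over at least 3 measured spots, the 10 highest sets with all spots, all genes called with measured spots and the gene with most measured spots in each subfamily. Members and lists were chosen with earlier results of these data known. The position of spots in exons or introns was not analysed here.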

Additional observations from a re-analysis of the deposited data

How the results depend on the processing

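No result has replicates. Depth on an array is its signal over background, which fails for most member spots in Cy5, though not in Cy3. Medians moving by 0.1 or more, shares leaving their 95% Wilson interval and gene counts moving over 1.5 times are given, as array 1 and 2. The medians, 0.85 and 0.91 in the report, were 0.43 and 0.22 for measured spots alone, 0.54 and 0.30 after removing the GC trend, 0.57 and 0.24 after both, 0.24 and 0.0297 with the deposited log ratio (most member spots are 0 before centring), 0.0471 and -0.0289 (turned) with normexp, 0.00787 and 0.00496 with the lowess trend subtracted, 0.63 and 0.53 with input well above background, and 0.12 and -0.0913 (turned) with an input of at least 400, a choice made after seeing the data. In the same order of settings, the shares called on array 1 were 3.95%, 4.73%, 9.88%, 0.172%, 1.12%, 3.27%, 3.46% and 3.61%, and 13.0% at a set probability of 0.0001. Other spots of array 1 gave 1.62%, 1.59%, 1.86%, 0.858%, 5.05%, 3.65%, 1.34% and 1.25%, and 1.89% at 0.0001. On array 2 the member shares were 0%, 0.116%, 0%, 0%, 2.08% with lowess, 0% with an input of at least 400, and 0.116% at 0.0001. Other spots of array 2 gave 1.46%, 0.229%, 0.888%, 0.213%, 11.8%, 1.09% and 0.175% in that order. Genes called were 8, 25, 15 and 2 in the first 4 settings, 14 with normexp, 17 with input well above background and 2 with an input of at least 400. Shares of all gene annotations are given above for the settings with 8 and 15, and were not counted for the rest. The cause of these moves was not tested. The other 23 values, among them those with neighbours within 500 bp, a set mean of at least 1 and single names only, stayed within those bounds. No paired analysis was possible because each array is a group of 1 sample with its own probes.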
